A study of Homo sapiens with 4 samples.

Results

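The mRNA levels of 10 genes of cellular iron handling were followed by RNA-seq in Jurkat, a human line of T cell acute lymphoblastic leukemia (T-ALL), with and without a hairpin RNA against the transcription factor SOX4. They were the ferritin chain genes FTH1 and FTL, the transport genes TFRC, SLC11A2 and SLC40A1, the sensing genes IREB2, ACO1 and FBXL5, and HMOX1 and NCOA4, which release iron from heme and from ferritin. They were chosen by symbol from the 64252 gene IDs of the count table, with their values in this same contrast already known. Each of the 10 symbols matched 1 row, and 9 passed the filter on low counts, with HMOX1 left out. One group was transfected with a scramble control hairpin (sh-Scb, 2 libraries) and the other with the SOX4 hairpin (sh-SOX4, 2 libraries), and no further treatment is named for either. The labels do not say whether replicates were separate cultures, so the spread between libraries may be technical, and the sources used here give neither the hairpin sequence nor the time after transfection.

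Cells take up iron mainly as transferrin bound to the transferrin receptor, reduce it in endosomes and carry it to the cytosol. Iron that is not used is stored in ferritin, a shell of heavy and light chains, or leaves through ferroportin. Iron regulatory proteins sense cytosolic iron and bind a hairpin, the iron-responsive element, in the mRNAs of these genes. In iron-poor cells, binding in a 5′ untranslated region blocks translation and binding in a 3′ untranslated region protects the mRNA from decay. Dividing leukemic T cells are known for high transferrin receptor levels.

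The libraries summed to between 29093287 and 36636219 counts, and 3 counts corresponded to 0.0792 to 0.101 CPM, the depth-scaled unit used here. The targeted gene SOX4 had 10246 and 8344 counts with the control hairpin and 6049 and 5914 with its own. It fell to 71.1% of the control level, a log2 fold change of -0.49 (SE 0.044) with an adjusted p of 1.24e-05 in edgeR's quasi-likelihood test. All 10 T cell and T-ALL markers were counted, and their summed level was 1727 to 1737 CPM in sh-Scb and 2236 to 2254 CPM in sh-SOX4. In the same test 8 of them were called, beside 44.1% of all tested IDs. Of these, CD247 was lower, at a log2 fold change of -0.34, and the rest were higher. CD7 at -0.17 and LCK at 0.04 were not called. The 4 B cell markers summed to 66.5 to 68.3 CPM in sh-Scb and 14.1 to 14.6 CPM in sh-SOX4, nearly all of it CD79A, and the part of either shift in the iron results was not tested. Markers of cells that are rich in iron genes stayed low. The 8 monocyte and macrophage markers summed to at most 10.5 CPM and the 10 erythroid markers to at most 3.94 CPM in any library, with LYZ, MARCO and HBB at 0 counts in all of them.

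Hairpins of the form known to be bound by iron regulatory proteins are shown first, because they place the genes that hold them in 2 classes. They were found in GENCODE release 29 transcripts with the motif CNNNNNCAGTGNNNNNN, read on the transcript strand, with at least 4 pairs (A with T, G with C or G with T) between the 5 bases on either side of the 6-base loop. Capitals mark the bulged C and the loop, and T stands for U.
FTH1, 5′ UTR: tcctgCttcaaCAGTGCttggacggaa
FTL, 5′ UTR: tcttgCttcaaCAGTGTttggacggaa
SLC40A1, 5′ UTR: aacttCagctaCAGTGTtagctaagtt
TFRC, 3′ UTR, first hairpin: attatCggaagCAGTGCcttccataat
TFRC, 3′ UTR, last hairpin: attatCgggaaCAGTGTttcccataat
SLC11A2, 3′ UTR: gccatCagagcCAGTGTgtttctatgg

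On GRCh38 these lie at chr11:61967575-61967601 (minus strand) in FTH1, chr19:48965336-48965362 (plus strand) in FTL and chr2:189580662-189580688 (minus strand) in SLC40A1. The TFRC hairpins lie at chr3:196050980-196051006 and chr3:196050464-196050490 (minus strand), and the SLC11A2 hairpin at chr12:50988270-50988296 (minus strand). TFRC held 4 such hairpins in its 3′ UTR. The hairpins of FTH1, FTL, SLC40A1 and TFRC had 5 stem pairs, which 0.636% of 19659 protein-coding genes had in a UTR of the transcript searched. The SLC11A2 hairpin had 4 pairs, and 4.41% of genes had a UTR hairpin of at least 4. ACO1 and IREB2 each had 1 match of 4 pairs in a 3′ UTR, and HMOX1, NCOA4 and FBXL5 had none.

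Both ferritin genes were higher in sh-SOX4. FTH1 encodes the heavy chain, which oxidises iron on entry into the shell (ENSG00000167996, chromosome 11, 61959718 to 61967660). It was at 949 and 954 CPM in the sh-Scb libraries and at 2895 and 3101 CPM in the sh-SOX4 libraries. The groups lay far apart, and the libraries within a group lay close together. The mean went from 951 ± 3.53 to 2998 ± 146 CPM (SD, n = 2), a 3.15-fold difference with a log2 fold change of 1.66 (SE 0.042). Of all tested IDs, 0.995% had a higher log2 fold change.

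FTL encodes the light chain, which promotes mineral formation inside the shell (ENSG00000087086, chromosome 19, 48965301 to 48966878). Its level was 447 and 423 CPM in sh-Scb and 1230 and 1255 CPM in sh-SOX4. Again no sh-Scb library reached a sh-SOX4 library. The mean went from 435 ± 16.9 to 1242 ± 17.8 CPM (SD, n = 2), a 2.86-fold difference with a log2 fold change of 1.51 (SE 0.041). Of all counts in a library, FTH1 took 0.0979% and 0.0987% in sh-Scb against 0.279% and 0.299% in sh-SOX4.

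Reads of FTH1 may be shared with other genes. BEST1, which encodes the chloride channel bestrophin 1 of the retinal pigment epithelium, lies on the opposite strand and shares 1267 exonic bases with FTH1, 62.4% of the exonic bases of FTH1 and 14.2% of its own. Counts of BEST1 were 902 and 297 with the control hairpin and 3361 and 57 with the SOX4 hairpin. Its libraries of 1 group differed more than the groups did, and its log2 fold change of 1.67 (SE 2.23) did not pass edgeR's quasi-likelihood test, with an adjusted p of 0.632. These counts were 2.52%, 1.03%, 3.66% and 0.0617% of the FTH1 counts in the same libraries. With FTH1 and BEST1 summed into 1 feature, the log2 fold change was 1.66 (SE 0.036). The 25 annotated FTH1 pseudogene copies held 73 to 220 counts per library in all, and the 16 FTL copies held 15 to 29, although the assignment of reads between a gene and its copies is uncertain.

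**Figure D1:**
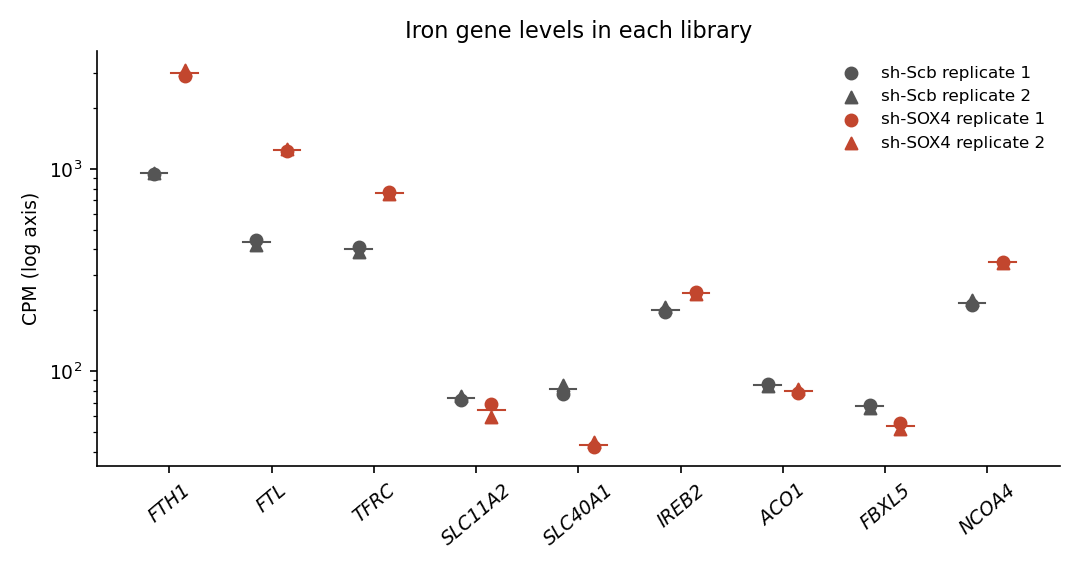
Level of each tested iron gene in CPM (log axis) in the 2 sh-Scb libraries (grey) and the 2 sh-SOX4 libraries (red), with the group mean as a line. FTH1 went from 951 to 2998 CPM and FTL from 435 to 1242 CPM on average, while SLC40A1 went from 81.7 to 43.3 CPM.

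Of the transport genes, the importer and the exporter moved in opposite directions. TFRC encodes the transferrin receptor, the main route of iron into dividing cells (ENSG00000072274, chromosome 3, 196027183 to 196082189). It stood at 412 and 388 CPM in sh-Scb and at 770 and 752 CPM in sh-SOX4, with no overlap. The mean went from 400.1 ± 16.6 to 761 ± 12.5 CPM (SD, n = 2), a 1.90-fold difference with a log2 fold change of 0.93 (SE 0.043).

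SLC40A1 encodes ferroportin, the only known exporter of iron from cells (ENSG00000138449, chromosome 2, 189560579 to 189583758). The sh-Scb libraries had 77.4 and 86.0 CPM and the sh-SOX4 libraries 42.1 and 44.5 CPM. Every sh-SOX4 library was below every sh-Scb library. The mean of 43.3 ± 1.73 CPM in sh-SOX4 was 53.1% of the 81.7 ± 6.08 CPM in sh-Scb (SD, n = 2), a log2 fold change of -0.91 (SE 0.070). It was the gene with the lowest log2 fold change of the 9.

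SLC11A2 encodes DMT1, which carries iron out of endosomes after transferrin uptake (ENSG00000110911, chromosome 12, 50979401 to 51028566). Its levels were 71.7 and 75.6 CPM in sh-Scb and 69.2 and 59.6 CPM in sh-SOX4. The groups did not overlap, but the 2 sh-SOX4 libraries differed from each other by more than the nearest libraries of the 2 groups did. The log2 fold change was -0.19 (SE 0.075) and was not past the threshold. It was -0.30 without sh-SOX4 replicate 1 and -0.23 without sh-Scb replicate 1, both past the threshold, and -0.09 without sh-SOX4 replicate 2.

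Among the sensing genes the differences were smaller than those of the ferritin genes. IREB2 encodes iron regulatory protein 2, which is degraded when iron is ample (ENSG00000136381, chromosome 15, 78437431 to 78501456). It had 195 and 207 CPM in sh-Scb and 247 and 241 CPM in sh-SOX4. The groups were separate, with means of 201 ± 8.51 and 244 ± 4.09 CPM (SD, n = 2) and a log2 fold change of 0.28 (SE 0.047).

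ACO1 encodes the cytosolic aconitase, which becomes iron regulatory protein 1 when it loses its iron-sulfur cluster (ENSG00000122729, chromosome 9, 32384603 to 32454769). Values of 86.2 and 84.8 CPM in sh-Scb stood beside 77.9 and 81.8 CPM in sh-SOX4. The groups did not overlap, yet the gap between them was smaller than that between the 2 sh-SOX4 libraries. The log2 fold change of -0.10 (SE 0.054) was not past the threshold. Scaling to library totals shifted the median over all IDs from -0.01 to -0.109 and put ACO1 at -0.20, past the threshold.

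FBXL5 encodes the iron-binding subunit of the ubiquitin ligase that marks the iron regulatory proteins for degradation (ENSG00000118564, chromosome 4, 15604539 to 15681679). The sh-Scb libraries stood at 68.3 and 65.9 CPM and the sh-SOX4 libraries at 55.3 and 52.1 CPM. Both sh-SOX4 libraries were lower, with 80.0% of the control level, a mean of 67.1 ± 1.69 against 53.7 ± 2.24 CPM (SD, n = 2) and a log2 fold change of -0.32 (SE 0.062). IREB2 was thus higher and the gene of the ligase subunit that targets its protein was lower in the same libraries, at the level of mRNA.

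NCOA4 encodes the receptor that delivers ferritin to autophagosomes, where its iron is released (ENSG00000266412, chromosome 10, 46005088 to 46030714). It was at 213 and 224 CPM in sh-Scb and 347 and 343 CPM in sh-SOX4. The groups stood well apart, with means of 219 ± 7.65 and 345 ± 2.88 CPM (SD, n = 2) and a log2 fold change of 0.66 (SE 0.044). Its 4 pseudogene copies held 4 to 8 counts per library.

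HMOX1 encodes the inducible heme oxygenase, which frees iron from heme and is a known target of NRF2 (ENSG00000100292, chromosome 22, 35380361 to 35394214). No count of it was found with the control hairpin, and 0 and 5 counts were found with the SOX4 hairpin, the last equal to 0.168 CPM. A count of 0 allows up to 3 counts, so HMOX1 was not detectable in 3 of the 4 libraries at this depth and was not tested.

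In all, 7 of the 9 tested genes were past an adjusted p of 0.05 in edgeR's quasi-likelihood test, 5 higher and 2 lower in sh-SOX4, where 44.1% of all 19897 tested IDs were called. FTH1 and FTL, 2 of the 9, were called and differed by 1 or more on the log2 scale, as were 9.45% of all tested IDs. All 9 had groups that did not overlap, as did 72.9% of all tested IDs. Since the genes were proposed with this contrast in view, nothing is read from these counts. The median log2 fold change was 0.28 over the 9 genes and -0.01 over all tested IDs. Over all IDs, 4609 were higher and 4166 lower, which became 3629 and 5260 with scaling to library totals, and under that scaling 5 of the iron genes were higher and 4 lower. CPM is a share of a library, so a change in RNA per cell and a change in the share of cells with a transcript cannot be told apart.

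**Figure D2:**
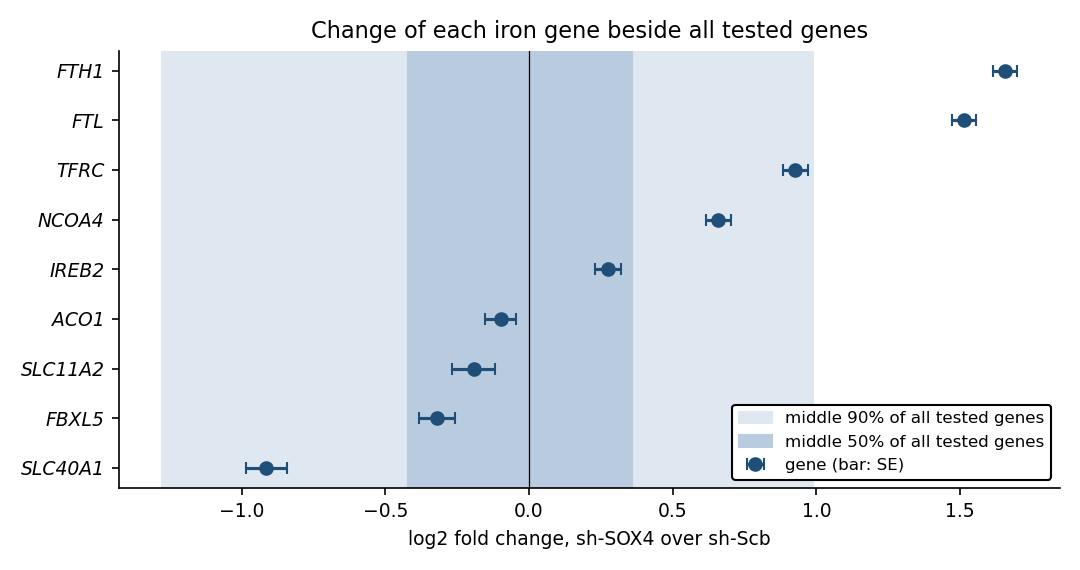
Log2 fold change (sh-SOX4 over sh-Scb) of each tested iron gene with its SE, over bands that hold the middle 50% and the middle 90% of all 19897 tested IDs. FTH1 at 1.66 and FTL at 1.51 lie above the 95th percentile of 0.99, and SLC40A1 at -0.91 lies inside the 5th percentile of -1.28.

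The genes were also read by hairpin class. Among the mRNAs with a 5′ hairpin, the differences were 1.66 for FTH1 and 1.51 for FTL on the log2 scale against -0.91 for SLC40A1. The 5′ class thus held called differences in both directions. Among those with a 3′ hairpin, the log2 fold change was 0.93 for TFRC, with 4 hairpins of 5 pairs. For the genes with 1 match of 4 pairs it was 0.28 in IREB2, which was called, and -0.19 in SLC11A2 and -0.10 in ACO1, which were not. Such a match is one of letters, and 4.41% of genes had a UTR hairpin of at least 4 pairs. The class of a gene rests on 1 transcript, while its counts pool all its transcripts, with or without the hairpin. Binding of the 5′ hairpins is known to act on translation, which these counts do not measure.

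Levels were compared between genes per kilobase of all annotated exons together. In sh-Scb, FTL led with 495 ± 19.3 CPM per kb and FTH1 followed with 469 ± 1.74 (SD, n = 2). NCOA4 with 53.6 ± 1.88 and TFRC with 50.7 ± 2.10 came next and did not differ beyond their spread. SLC40A1 with 18.9 ± 1.40 and IREB2 with 18.6 ± 0.787 could not be ordered either. FBXL5 with 14.7 ± 0.369, ACO1 with 11.3 ± 0.129 and SLC11A2 with 7.26 ± 0.271 CPM per kb followed at steps larger than their spread (SD, n = 2). Part of this order depended on the length taken. Per kilobase of the longest single transcript, a setting added after the values were seen, FTH1 with 774 led FTL with 495, and TFRC with 78.3 stood above NCOA4 with 61.6. IREB2 with 31.7 then stood above SLC40A1 with 23.7 and FBXL5 with 19.8, and SLC11A2 with 16.9 above ACO1 with 11.5 CPM per kb.

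In sh-SOX4, FTH1 had 1477 ± 71.8 and FTL 1415 ± 20.2 CPM per kb, a gap within their spread. TFRC with 96.5 ± 1.58 stood above NCOA4 with 84.6 ± 0.706. IREB2 followed with 22.6 ± 0.378, then FBXL5 with 11.7 ± 0.490, ACO1 with 10.6 ± 0.364 and SLC40A1 with 10.004 ± 0.400, and SLC11A2 with 6.35 ± 0.668 CPM per kb (SD, n = 2). The ranges of mean ± SD of ACO1 and SLC40A1 overlapped, though their library values did not (10.32 and 10.83 against 9.72 and 10.29 CPM per kb). SLC40A1 stood above FBXL5 in sh-Scb and below it in sh-SOX4 by both lengths, with 12.6 and 15.9 CPM per kb of longest transcript in sh-SOX4.

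Ratios between pairs show how the balance of the genes differed. The heavy to light chain ratio, FTH1 over FTL per kb, was 0.918 and 0.975 in sh-Scb against 1.02 and 1.07 in sh-SOX4. The chains thus differed nearly in step. The size of this ratio, and which chain leads in sh-Scb, rest on the length taken: with the longest single transcript of each gene the means were 1.56 and 1.72. TFRC over SLC40A1, importer over exporter, was 2.92 and 2.48 in sh-Scb against 10.04 and 9.27 in sh-SOX4, the widest fold gap of the 5 ratios. FTH1 over NCOA4 was 8.94 and 8.55 against 16.8 and 18.2. FTH1 over TFRC was 8.95 and 9.54 against 14.6 and 16.02. IREB2 over ACO1 was 1.59 and 1.71 against 2.21 and 2.06. No ratio overlapped between the groups, and neither did 72.9% of all tested IDs. The ratios combine genes whose differences are given above, so they add no further result. TFRC over SLC40A1 sets a gene that was higher over a gene that was lower, so its wide gap follows from the choice of pair.

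**Figure D3:**
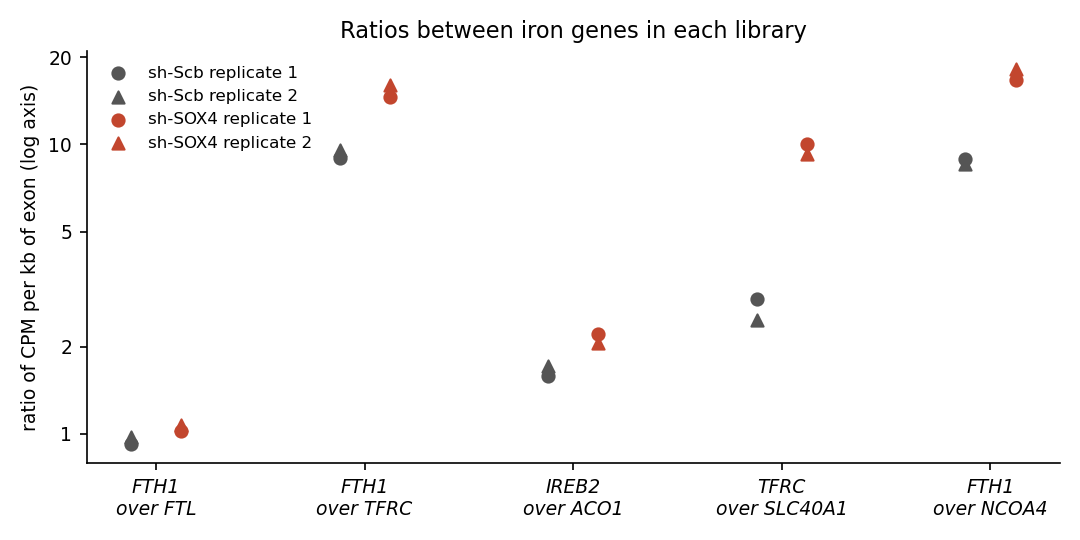
Ratio of CPM per kb of exon between pairs of iron genes (log axis) in each library, grey for sh-Scb and red for sh-SOX4. TFRC over SLC40A1 is at 2.48 to 2.92 in sh-Scb and at 9.27 to 10.04 in sh-SOX4, while FTH1 over FTL stays between 0.918 and 1.07.

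Promoter windows from RefSeq (GRCh38.p14, 250 bases before to 50 after a start) were given for 8 of the genes, all but FTH1 and HMOX1, with 13 windows in all since a gene can have several starts. They were searched on both strands for motifs of factors known to act on iron genes. ACGTG, the core of the hypoxia response element, was in a window of 3 of the 8 genes, and in a window of 24.9% of the 27305 genes given. CACGTG, the E-box of MYC and MAX, which contains it, was in 1 of 8 and in 8.77% of all genes. TGACNNNGC, the antioxidant response element of NRF2 and BACH1, was in 2 of 8 and in 16.1% of all genes. TGANTCA, a loose form of the AP-1 site that allows any middle base, was in 2 of 8 and in 9.37%. Its matches were TGAATCA in NCOA4 and TGATTCA in SLC11A2. Neither has the middle C or G of the usual AP-1 site. The SOX cores AACAAT and AACAAAG were each in 1 of 8, SLC11A2 and IREB2, against 12.2% and 6.35% of all genes. Of the 3 genes with ACGTG, FTL and TFRC were higher in sh-SOX4 and FBXL5 was lower. As 7 of the 9 tested iron genes were called, beside 44.1% of all tested IDs, nothing is read from this. In FTL the motif lies on the opposite strand and in FBXL5 inside CACGTG. The stretches of these 3 genes are shown, with the motif in capitals.
FTL: ccgccctagcCACGTcccctcgcag
TFRC: tcgcgagcgtACGTGcctcaggaag
FBXL5: cgcgcccggtCACGTGggccgcaggg
They lie at chr19:48965288-48965312 on the plus strand and at chr3:196082164-196082188 and chr4:15655462-15655487 on the minus strand, and a match of letters is no evidence of binding.

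Other genes of iron and heme handling were read from 10 lists, of which 122 of 141 genes were tested. Of these, 50 rose and 23 fell in edgeR's quasi-likelihood test, where 23.2% of all tested IDs were higher and 20.9% lower. With scaling to library totals, 40 rose and 28 fell. Their median log2 fold change was 0.18, beside -0.01 for all tested IDs. The lists include NRF2 target genes outside iron handling, of which 11 of 11 tested rose. That list was drawn up with the rise of NQO1 and OSGIN1 known, so nothing is read from the pooled count or median. The counts of each list below stand beside the same shares of all tested IDs, and no list was tested as a set.

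The regulators of iron gene transcription went both ways. MYC, known to activate TFRC and to repress FTH1, was at 50.7 ± 2.07 CPM in sh-Scb and 193 ± 0.977 in sh-SOX4 (SD, n = 2). NFE2L2, which encodes NRF2, an activator of ferritin and ferroportin genes, rose by 0.50 on the log2 scale (SE 0.063, adjusted p 0.000129), and KEAP1, its inhibitor, by 1.01 (SE 0.059, adjusted p 7.48e-07). Of the exonic bases of NFE2L2, 20.9% are shared with other genes. HIF1A, the oxygen-regulated factor known to activate TFRC, fell from 121 ± 5.78 to 64.4 ± 0.244 CPM (SD, n = 2, adjusted p 9.22e-07). In all 3 of these 12 genes rose and 6 fell, and BACH1, the heme-binding repressor of ferritin genes and HMOX1, stood at -0.13 on the log2 scale and did not pass.

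NRF2 target genes outside iron handling rose throughout: 11 of 11 tested, with a median log2 fold change of 1.02. TXNRD1, the cytosolic thioredoxin reductase, rose from 368 ± 9.75 to 866 ± 15.8 CPM, OSGIN1 from 8.71 ± 0.312 to 51.2 ± 1.23 CPM and the sulfiredoxin gene SRXN1 from 37.1 ± 3.08 to 94.4 ± 1.03 CPM (SD, n = 2). The list was drawn up with the rise of NQO1 and OSGIN1 known, so it is no independent support. HMOX1, a target of the same factor, stayed at or near 0 counts. Of the exonic bases of SRXN1, 85.0% lie also in the gene AL121758.1, and 13.9% of those of OSGIN1 lie also in AC009119.2.

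Genes of iron uptake, reduction and export partners went both ways. Of 10 tested, 3 were higher and 2 lower, beside 23.2% and 20.9% of all tested IDs. Values ran from -1.23 to 0.85, with a median of 0.04. SLC39A14, a zinc and iron importer, rose by 0.59 (SE 0.051), and MON1A, known for ferroportin trafficking, by 0.85 (SE 0.11) on the log2 scale. SLC22A17, the lipocalin 2 receptor, fell from 34.7 ± 0.979 to 14.8 ± 0.326 CPM (SD, n = 2), and the ferric reductase CYBRD1 fell by 0.28 (SE 0.070), with an adjusted p of 0.0557 in place of 0.00852 without sh-SOX4 replicate 1. The transferrin gene TF, the hepcidin gene HAMP and the ferroxidase genes CP and HEPH were among the 11 that were too low to test.

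Among iron chaperones, FBXL5 ligase subunits and ferritin turnover genes, 3 of 12 rose and 3 fell, beside 23.2% and 20.9% of all tested IDs. CUL1, the scaffold of the ligase in which FBXL5 sits, rose from 75.1 ± 1.55 to 125 ± 1.02 CPM (SD, n = 2), opposite to FBXL5 itself. The iron chaperone genes went apart: PCBP1 rose by 0.26 (SE 0.043) and PCBP2 fell by 0.25 (SE 0.042) on the log2 scale. Of their exonic bases, 52.2% and 32.7% are shared with other genes, and PCBP2 has 4 pseudogene copies.

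Among genes of iron-sulfur cluster assembly, 12 of 23 tested mitochondrial genes rose and 3 fell, beside 23.2% and 20.9% of all tested IDs. Their median was 0.27. HSPA9, the chaperone that hands on new clusters, rose from 325 ± 5.23 to 625 ± 1.43 CPM and NDUFAB1, the acyl carrier protein of the assembly complex, from 47.6 ± 1.75 to 90.4 ± 0.137 CPM (SD, n = 2). ISCA1 rose by 0.67 (SE 0.090), though its 5 pseudogene copies make its level uncertain. SLC25A28, a mitochondrial iron importer, fell by 0.51 (SE 0.091), ABCB10 fell by 0.45 (SE 0.074) and ISCA2 fell by 0.35 (SE 0.087) on the log2 scale. With scaling to library totals, 8 rose and 3 fell.

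Of 11 cytosolic assembly genes 6 rose and none fell, beside 23.2% and 20.9% of all tested IDs, with a median of 0.28. Scaling to library totals made this 5 higher and 2 lower. GLRX3, a glutaredoxin that carries clusters, went from 57.6 ± 1.01 to 101 ± 0.832 CPM, CIAO1 of the targeting complex from 111 ± 0.128 to 163 ± 0.657 CPM and CIAPIN1 from 48.1 ± 1.65 to 67.0 ± 1.97 CPM (SD, n = 2).

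In heme synthesis 6 of 14 tested genes rose and 2 fell, beside 23.2% and 20.9% of all tested IDs, with a median of 0.26. UROS, the uroporphyrinogen III synthase, rose from 30.7 ± 2.71 to 62.1 ± 2.28 CPM (SD, n = 2). PPOX, a later enzyme with 24.3% of its exonic bases shared, fell by 0.68 (SE 0.17), and PGRMC1, a heme-binding membrane protein, fell from 64.9 ± 1.78 to 31.1 ± 1.74 CPM (SD, n = 2). ALAS1, the first enzyme, stood at 0.23 on the log2 scale and did not pass. Heme breakdown and transport genes gave 2 higher and 2 lower of 12, with 4 higher and 2 lower without sh-Scb replicate 1 and 1 higher and 2 lower without sh-Scb replicate 2. HMOX2, the constitutive heme oxygenase, rose from 13.9 ± 3.23 to 24.2 ± 0.945 CPM, while the heme exporter FLVCR1 fell from 75.03 ± 1.79 to 50.3 ± 1.22 CPM and LRP1, a receptor for heme bound to hemopexin, from 42.5 ± 2.60 to 21.0 ± 1.98 CPM (SD, n = 2).

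Of 5 other tested mRNAs reported to carry an iron-responsive element, none rose and 3 fell. PFN2 fell by 0.61 (SE 0.10), EPAS1 fell by 0.59 (SE 0.15) and CDC14A fell by 0.32 (SE 0.12) on the log2 scale. The call of CDC14A, with an adjusted p of 0.0478 in edgeR's quasi-likelihood test, was lost without any 1 of the 4 libraries, with adjusted p from 0.0703 to 0.221. That of EPAS1 was lost without sh-Scb replicate 2, with an adjusted p of 0.068, which left 1 gene of this list called. Without sh-Scb replicate 1, 1 gene of the list was higher and 2 were lower.

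In the list of ferroptosis, a death by iron-driven lipid peroxidation, 5 of 14 tested genes rose and 3 fell, which became 3 and 3 without sh-SOX4 replicate 2 and also with scaling to library totals. SLC3A2, a subunit of the cystine importer, rose from 119 ± 5.51 to 187 ± 8.11 CPM and CISD1, a mitochondrial iron-sulfur protein, from 22.6 ± 1.53 to 41.0 ± 0.948 CPM (SD, n = 2). ACSL4, which prepares polyunsaturated lipids for peroxidation, fell from 157 ± 6.83 to 103 ± 5.89 CPM (SD, n = 2). GCH1 fell by 0.24 (SE 0.058) and the lipoxygenase ALOX12 fell by 0.92 (SE 0.24) on the log2 scale. Of the exonic bases of ALOX12, 18.8% are shared with other genes. Without sh-SOX4 replicate 1, the adjusted p of GCH1 was 0.0501, and without sh-Scb replicate 2, that of ALOX12 was 0.0522.

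**Figure D4:**
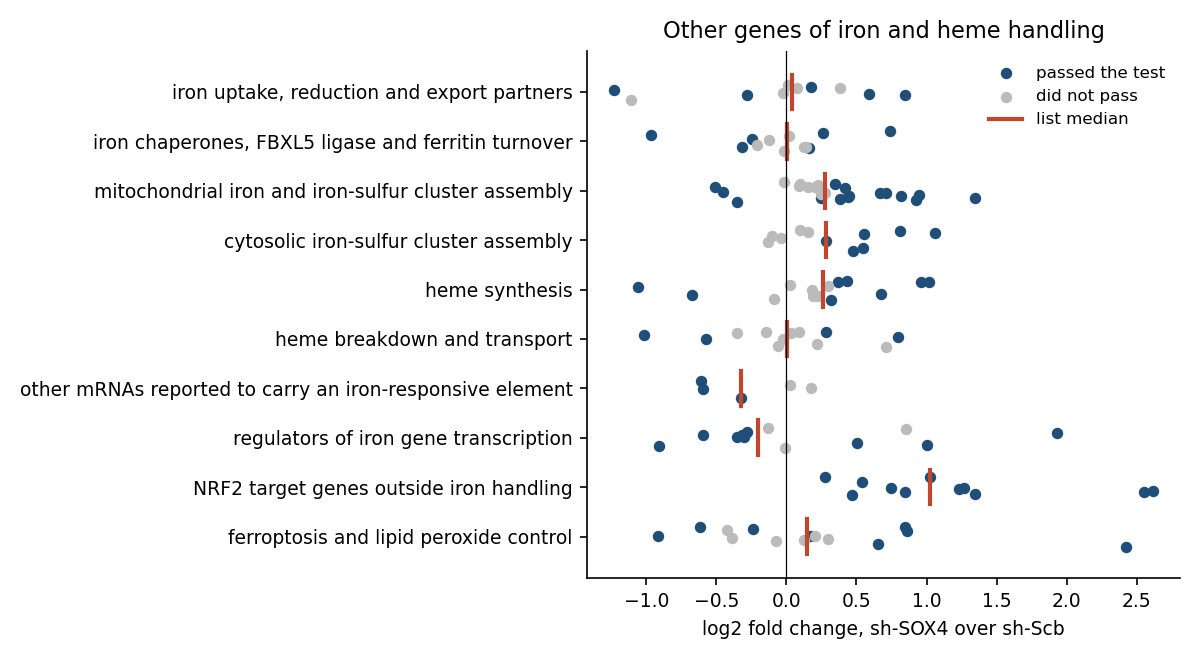
Log2 fold change (sh-SOX4 over sh-Scb) of each tested gene in 10 lists of iron and heme handling, blue where it passed edgeR's test and grey where it did not, with the list median in red; genes in 2 lists appear in each. NRF2 targets have the highest median, 1.02, and the other mRNAs with an iron-responsive element the lowest, -0.32.

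Genes with a pattern most like that of a member were found by the distance between centred log2 CPM over the 4 libraries, among 6740 genes. RRP12, GRWD1 and MRTO4 lay nearest to FTH1, at distances of 0.0506, 0.0907 and 0.093. ATP5MC1, PA2G4 and NDUFAB1 lay nearest to TFRC, at 0.00474, 0.0172 and 0.0226. PLXNB2, NLGN2 and MT-TY lay nearest to SLC40A1, at 0.0242, 0.0322 and 0.0553. With 4 libraries, such likeness is mostly a like difference between the 2 groups.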

How the data were processed

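Raw read counts per Ensembl gene ID, as whole numbers, were taken from the deposited table, which has 1 column a library. HISAT2 2.2.0, StringTie and hg38 are named per the submitters' processing notes; the sources used here do not give their roles, the annotation release or the use of strand. Total RNA was extracted with TRIzol and made into TruSeq libraries, per the labels' protocols. Control columns are named NC and were taken as sh-Scb, because the other columns name SOX4. Symbols were found for 56105 of 64252 IDs, and coordinates came from GENCODE release 29 (GRCh38, the assembly hg38 names).

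IDs with low counts were removed (filterByExpr, at least 10 counts, total of at least 15). TMM scaling and the robust quasi-likelihood test of edgeR 4.0.16 (R 4.3.3) followed, with group as the term and 2 residual degrees of freedom. P-values were adjusted by Benjamini-Hochberg over all 19897 tested IDs at 0.05. The SE is the size of the log2 fold change over the square root of F. Floors cover counting error only. Libraries of a group differed by more than sampling noise (median chi-square per gene 1.70 and 1.59, against 0.455), so none was counted as a copy. The steps were tested on simulated counts.

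The iron genes and lists were chosen with earlier results of these data known. Beside the 10 genes, SOX4 and BEST1, the text names up to 3 called genes of each list by smallest adjusted p, any called against the list's main direction where these are 3 or fewer, and, as exceptions chosen after their values were seen, untested or uncalled genes named for their role; a few genes that this rule picks are left out of the text. The alternatives tried were median-ratio factors, library totals, no filter, a floor of 10 CPM, the replicate number as a block, leaving out each library, DESeq2 1.42.0, summed features and another gene length; a block with crossed numbers was added after seeing the data. Figures were drawn with matplotlib 3.10.9.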

Additional observations from a re-analysis of the deposited data

How the results depend on the processing

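The log2 fold changes of FTH1, FTL, TFRC, SLC40A1, IREB2, FBXL5 and NCOA4 kept their direction and their side of the threshold under every alternative run, and so did SOX4. The count of called iron genes ran from 7 to 9, that of pathway genes from 64 to 79 and that of all IDs from 7149 to 8889. SLC11A2 and ACO1 came past the threshold with library totals, at -0.29 and -0.20, and with at least 10 CPM in 2 libraries, at -0.26 and -0.16. The median over the 9 tested iron genes also moved down in these settings, from 0.28 to 0.18 and to 0.21. The part of this shift in the 2 calls was not tested. Without 1 library each, SLC11A2 ran from -0.299 to -0.0914 and ACO1 from -0.14 to -0.06. Taking the longest single transcript as length moved the ratios in sh-Scb and sh-SOX4 to 1.56 and 1.72 for FTH1 over FTL, 9.89 and 16.4 for FTH1 over TFRC, 2.77 and 3.59 for IREB2 over ACO1, 3.31 and 11.8 for TFRC over SLC40A1, and 12.6 and 25.1 for FTH1 over NCOA4, through the lengths alone. Deviations of same-numbered libraries from their group means had a correlation of -0.12 over 6860 genes. This rests on 2 libraries a group and cannot show whether same-numbered libraries shared a culture or a batch. The replicate block called 7 iron genes, 71 pathway genes and 8378 IDs, and the crossed block 8, 69 and 8368, with SLC11A2 at -0.20 past the threshold. Over the alternatives, the named pathway genes kept their call 402 times and lost it 13 times, all for CYBRD1, EPAS1, CDC14A, GCH1 or ALOX12, and none changed direction. With 2 libraries a group, the spread behind each SE is itself poorly known.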

Other observations

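Some values were singled out after they were seen. ALOX15, the lipoxygenase best known for oxidising membrane lipids, had 10 and 0 counts with the control hairpin and 25 and 23 with the SOX4 hairpin, a log2 fold change of 2.42 (SE 0.85) that rests on these few counts. FDX2, the ferredoxin that supplies electrons to cluster assembly, went from 3.62 ± 0.184 to 9.22 ± 1.68 CPM (SD, n = 2), the highest log2 fold change of its list at 1.35, though 70.9% of its exonic bases are shared with AC011511.1 and AC011511.4.

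STAT5A, listed as a regulator because STAT5 is known to act on TFRC and IREB2 in blood cells, had 8169 and 3520 counts with the control hairpin and 9317 and 9218 with the SOX4 hairpin. The sh-Scb libraries stood at 216 and 117 CPM, further apart than the nearest libraries of the 2 groups, and the log2 fold change of 0.85 (SE 0.42) did not pass.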
